A study of Mus musculus with 3 samples.

Results

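The genes described here are 9 genes of the hair cell ribbon synapse: Otof, Slc17a8, Cacna1d, Cacnb2, Ctbp2, Bsn, Rims2, Cabp1 and Cabp2. They were taken by gene symbol from a table of 57180 mouse genes, and each of the 9 had exactly 1 row, with a raw count and an FPKM value in each of 3 libraries. The libraries form a single group. They were made from wild-type cells of the vestibule, where the inner ear senses balance, that were picked for an appearance like a black ball. In the labels the cell type is macrophages, with immune cells given in another field, whereas the title of the series names melanocytes, which make pigment. The labels' protocols state that 18 cells came from 9 mice at 3 mice per group. The split of the cells among the libraries and the strain, sex and age of the mice are not given in the sources used here. There is no control group, so a level can be set only against a fixed level or against other genes of the same library. Nothing in the labels ties a library to particular animals, so the spread between libraries that enters the p-values may be technical rather than biological.

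Hair cells signal to the afferent nerve terminal through ribbon synapses, in which a dense protein body, the ribbon, holds glutamate-filled vesicles beside voltage-gated calcium channels of the CaV1.3 type. Calcium entering through these channels is sensed by otoferlin, and the vesicles fuse and release glutamate continuously and in graded amounts. The genes fall into 4 roles. Otof encodes the calcium sensor otoferlin and Slc17a8 the vesicular glutamate transporter VGLUT3. Cacna1d encodes the pore of CaV1.3, Cacnb2 an auxiliary beta subunit of calcium channels, and Cabp1 and Cabp2 calmodulin-like calcium-binding proteins that modulate such channels. Ctbp2 encodes both the ribbon protein RIBEYE and, from another start, the transcriptional corepressor CtBP2. Bsn encodes bassoon, which anchors ribbons, and Rims2 a RIM protein of the active zone. Otoferlin is characteristic of hair cells, whereas Bsn, Rims2, Cabp1 and Cacna1d are also used by neurons.

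The libraries held 18460546, 15086854 and 14095521 counts in replicates 1, 2 and 3. A floor of 3 counts was 0.163, 0.199 and 0.213 CPM (each count relative to its library total, with no gene length) in the same order. Levels are given as TPM, which is the deposited FPKM brought to an equal sum in every library. The call "above 1 TPM" comes from limma's moderated one-sided test of log2(TPM + 1) over the 3 libraries, at a Benjamini-Hochberg adjusted p under 0.05 over all 27265 genes with a count. The test draws each gene's own spread towards a trend over genes of like level, so its p-values rest on both. On the log2(TPM + 1) scale the own SD and the trend SD were 0.134 and 0.826 for Ctbp2. They were 0.334 and 0.879 for Cacna1d. All 10 macrophage markers examined passed, led by Lyz2 and Ctss (4616 ± 1632 and 907 ± 294 TPM, SD, n = 3, as for all values below), and 6 of 8 melanocyte markers did, led by Dct and Mlana (250 ± 19.6 and 232 ± 33.8 TPM). Hair cell markers were also present, with 11 of 12 above 1 TPM, led by Pvalb and Ocm (205 ± 202 and 155 ± 10.4 TPM). Without replicates 1, 2 and 3 in turn, 7, 8 and 10 of these 12 passed. In the same fits 9, 8 and 8 of the 10 macrophage markers and 5, 6 and 5 of the 8 melanocyte markers passed. Of all genes tested 37.6% passed with all libraries, and 24.9%, 28.1% and 30.4% in these fits, which fewer libraries enter. Without replicate 3 Pvalb averaged 89.0 TPM. Each library is a sum over its cells and any free RNA, so the cells that gave a transcript cannot be told, and fewer cells of a type and less RNA per cell cannot be told apart.

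Of the 9 ribbon synapse genes, 4 stood above 1 TPM in limma's test: Cabp2, Otof, Slc17a8 and Ctbp2. That is 44.4% of the genes, against 37.6% of all genes tested and 50.5% of the protein-coding ones, so the share was near the background. All 9 had counts in all 3 libraries. The genes spanned a wide range, with means between 0.643 and 578 TPM and a median of 2.73 TPM, against a median of 2.24 TPM over all genes with a count. Cabp2 made up 91.6%, 91.1% and 89.0% of the summed TPM of the 9 genes in replicates 1, 2 and 3. A level of at least 1 TPM in every library was met by these 4 and Cacna1d, 5 of 9, against 46.7% of genes with a count. Without replicate 1 only Cabp2 and Otof passed, where 24.9% of all genes did, and the same pair passed against 10 TPM, where 14.7% did. With scaling by edgeR or DESeq2 factors the same 4 genes passed, where 37.8% of all genes did in each case.

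**Figure D1:**
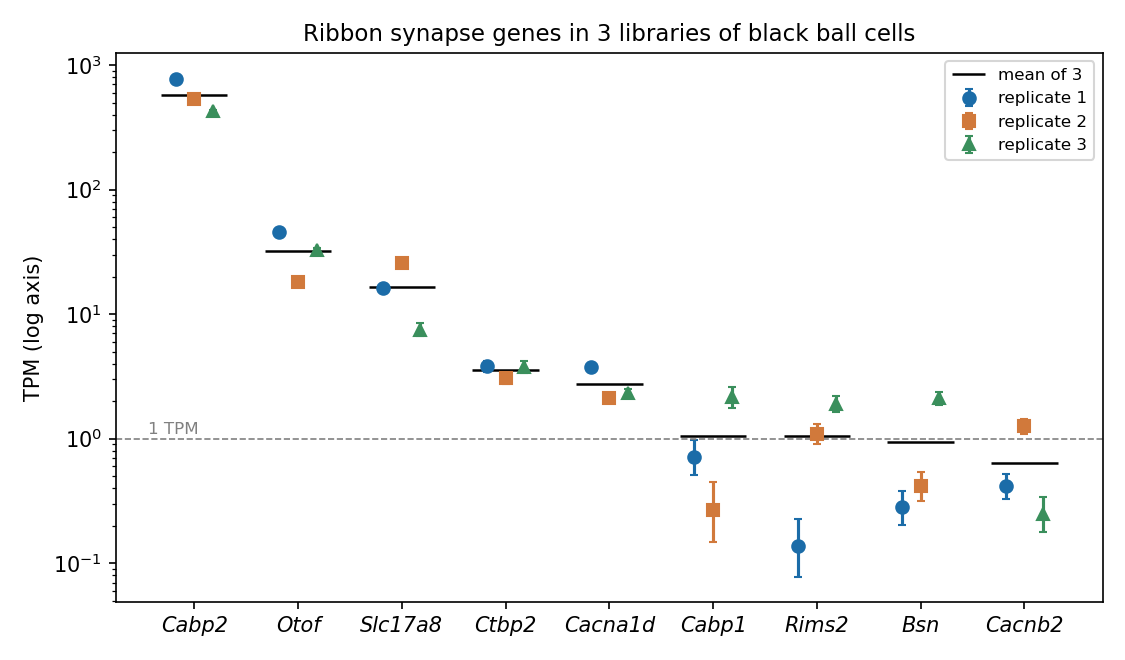
TPM of the 9 ribbon synapse genes on a log axis, with 1 point per library, its exact Poisson 95% interval (counting error only) and a bar for the mean of 3. Cabp2 lies between 427 and 775 TPM, Otof and Slc17a8 follow, Ctbp2 and Cacna1d lie between 2.11 and 3.80 TPM, and the other 4 genes lie on both sides of the dashed line at 1 TPM.

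Cabp2, a calmodulin-like modulator of CaV1.3 channels, was by far the most abundant of the 9. The gene, at chromosome 19, 4131578 to 4137340 (GRCm39), overlapped no other gene of the table. Its counts were 12908, 8085 and 6333 in replicates 1, 2 and 3, or 775, 533 and 427 TPM. All 3 libraries were high, and replicate 1 exceeded replicate 3 by 1.82-fold, beyond the counting intervals, which leave out other spread between libraries. The mean of 578 ± 179 TPM ranked 253 among 27265 genes with a count and 150 among 16219 protein-coding ones (limma, adjusted p = 1.3e-05 against 1 TPM). Cabp2 exceeded all 12 hair cell markers in replicates 1 and 2, and 11 of 12 in replicate 3, where Pvalb stood at 438 TPM. It also exceeded all 8 mechanotransduction genes in every library, the nearest being Cib2, a calcium-binding partner of the transduction channel, at 379 ± 157 TPM.

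Cabp1, its close relative, is used in brain, retina and ear, and differed sharply in level from Cabp2. The gene occupies chromosome 5, 115306748 to 115332440 (GRCm39). Its counts were 41, 14 and 110, or 0.718, 0.270 and 2.16 TPM in replicates 1, 2 and 3. Replicate 3 was highest and its counting interval of 1.78 to 2.61 TPM lay above those of replicates 1 and 2. Cabp1 averaged 1.05 ± 0.989 TPM and did not pass limma's test (adjusted p = 0.927), and its mean without replicate 3 was 0.494 TPM. On the log2(TPM + 1) scale Cabp2 minus Cabp1 was 8.82, 8.72 and 7.08 in replicates 1, 2 and 3, a mean of 8.21 ± 0.98. Cabp2 was higher in each of the 3 libraries (two-sided exact permutation by sign-flips, p = 0.25, adjusted p = 0.318 over 14 pairs). With 3 libraries 0.25 is the smallest p this test allows, so no pair can reach 0.05.

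The 250 bases before the annotated starts of these relatives are shown because these members of one family, both among the 9, lie far apart in level. The windows come from RefSeq on GRCm38.p6, an older build than that of the counts, and 7 of the 9 genes had a total of 13 such windows. The Cabp2 windows are chr19:4082238-4082487 and chr19:4083269-4083518 on the plus strand, and the Cabp1 windows chr5:115194382-115194631 and chr5:115186122-115186371 on the minus strand. Each reads 5′ to 3′ towards the start, in lower case, with capitals for the E-box letters CANNTG, a motif read by basic helix-loop-helix factors and identical on both strands.
Cabp2 outer start: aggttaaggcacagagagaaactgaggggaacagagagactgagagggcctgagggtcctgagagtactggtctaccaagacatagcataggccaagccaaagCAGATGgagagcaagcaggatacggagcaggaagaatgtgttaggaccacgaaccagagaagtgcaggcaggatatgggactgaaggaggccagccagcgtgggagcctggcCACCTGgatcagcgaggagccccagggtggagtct
Cabp2 inner start: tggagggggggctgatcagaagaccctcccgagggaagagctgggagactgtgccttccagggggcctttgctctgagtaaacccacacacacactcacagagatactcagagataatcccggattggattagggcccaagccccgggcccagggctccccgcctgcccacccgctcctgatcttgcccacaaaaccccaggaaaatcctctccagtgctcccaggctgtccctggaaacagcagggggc
Cabp1 outer start: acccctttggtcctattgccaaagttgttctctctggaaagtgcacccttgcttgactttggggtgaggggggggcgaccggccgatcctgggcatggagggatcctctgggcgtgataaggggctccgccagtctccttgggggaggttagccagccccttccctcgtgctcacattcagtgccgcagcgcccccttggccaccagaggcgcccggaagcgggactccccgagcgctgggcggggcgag
Cabp1 inner start: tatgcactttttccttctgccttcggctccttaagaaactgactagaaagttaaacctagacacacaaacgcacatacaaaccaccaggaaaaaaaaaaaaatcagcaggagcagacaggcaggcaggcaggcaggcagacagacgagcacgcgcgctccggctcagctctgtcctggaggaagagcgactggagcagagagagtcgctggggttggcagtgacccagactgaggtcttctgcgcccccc
The outer Cabp2 window held 2 E-box matches, which begin 147 and 35 bases before the start, and the other 3 windows held 0. Of 32851 RefSeq windows of the same length, 66.2% held at least 1 match. The letters TATAAA, searched on both strands, were in 0 of these 4 windows and in 12.4% of all windows. The GC box letters GGGCGG, searched on both strands, were in the outer Cabp1 window, 12 bases before the start, in 0 of the other 3 and in 32.7% of all windows. The gene-level counts do not tell which start was used, and a match is no evidence of a bound site.

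Otof, the calcium sensor of vesicle fusion, was second in mean level. Its span, chromosome 5, 30524406 to 30619276 (GRCm39), held no other gene. Its counts were 3577, 1282 and 2292, or 45.7, 18.0 and 32.8 TPM in replicates 1, 2 and 3. All 3 libraries were well above 1 TPM, with replicate 2 lowest and replicate 1 higher by 2.54-fold. The mean was 32.2 ± 13.9 TPM (limma, adjusted p = 0.000159). The ferlins are large membrane proteins with C2 domains, and Otof stood above both of the relatives compared. Dysf, which repairs muscle membranes, had 2, 1 and 2 counts, and Otof minus Dysf was 4.93 ± 0.65 on the log2(TPM + 1) scale, positive in all 3 libraries (exact permutation p = 0.25, adjusted p = 0.318). Otof minus Myof, the myoferlin gene (2.10 ± 1.43 TPM), was 3.42 ± 0.54 on the log2(TPM + 1) scale and positive in all 3 libraries (exact permutation p = 0.25, adjusted p = 0.318).

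Slc17a8, which loads glutamate into vesicles, came next. Chromosome 10 carries it at 89409882 to 89457115 (GRCm39), clear of other genes. Its counts were 647, 932 and 267, or 16.2, 25.7 and 7.52 TPM in replicates 1, 2 and 3. Replicate 2 was highest and replicate 3 lowest, a 3.42-fold range, and replicate 2 was the library in which Otof was lowest. The mean of 16.5 ± 9.09 TPM passed the test (limma, adjusted p = 0.00112) but not without replicate 1 (adjusted p = 0.0623) or with genes lacking counts kept in the fit (0.0684, where 12.1% of all genes passed). Slc17a8 stood above Otof only in replicate 2, so the order of these neighbours did not hold beyond the spread between libraries.

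The other glutamate transporters of this family, which neurons use, differed from Slc17a8 by library. Slc17a7, or VGLUT1, had 2, 4 and 23 counts and averaged 0.169 ± 0.207 TPM. Slc17a8 minus Slc17a7 was 3.77 ± 1.05 on the log2(TPM + 1) scale and positive in every library (exact permutation p = 0.25, adjusted p = 0.318). Slc17a6, or VGLUT2, had 14, 131 and 756 counts, or 0.286, 2.94 and 17.3 TPM in replicates 1, 2 and 3. Slc17a8 exceeded Slc17a6 in replicates 1 and 2 and was below it in replicate 3, with a difference of 1.80 ± 2.56 on the log2(TPM + 1) scale that lay within the spread (exact permutation p = 0.5, adjusted p = 0.583). Of the 7 other vesicular transporters examined, 6 had a count, and 0 of these passed limma's test over all genes, had an unadjusted p under 0.05 or passed in CPM. The shares of all genes tested were 37.6%, 41.9% and 43.4% in the same order. After Slc17a6, the most abundant were the monoamine transporter genes Slc18a2 (1.34, 1.27 and 0.146 TPM in replicates 1, 2 and 3) and Slc18a1 (75, 3 and 0 counts).

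Cacna1d, the pore of CaV1.3, lay above the median over all genes with a count in all 3 libraries. Those medians were 2.25, 1.77 and 1.99 TPM in replicates 1, 2 and 3. On chromosome 14 Cacna1d spans 29761896 to 30213412 (GRCm39), with ends that overlap Dcp1a and Chdh. Its counts were 886, 451 and 484, or 3.77, 2.11 and 2.31 TPM in replicates 1, 2 and 3. All 3 libraries exceeded 1 TPM and replicate 1 was highest. The mean of 2.73 ± 0.908 TPM did not pass (limma, adjusted p = 0.106). The call depends on gene length and on the fit: in CPM against 1 CPM the adjusted p was 7.29e-06, where 43.4% of all genes passed. It was 0.0202 without limma's trend, where 41.2% did, and 0.0316 among genes counted in all 3 libraries, where 64.7% did. Its relatives among the L-type pores were lower: Cacna1c, the channel of heart and smooth muscle, averaged 0.138 ± 0.160 TPM and Cacna1f, the channel of photoreceptor ribbons, had 0, 0 and 23 counts. Cacna1d was higher than each in 3 of 3 libraries, by 1.70 ± 0.44 and 1.75 ± 0.45 on the log2(TPM + 1) scale (exact permutation p = 0.25 and adjusted p = 0.318 for both). Since both relatives lay near 0, the pseudocount sets the size of these differences, which were 3.72 and 4.13 with a pseudocount of 0.1 and 0.58 and 0.60 with 5. Of the 14 differences between family members 14 kept their sign under these pseudocounts, and 11 moved by more than 1.5 times.

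Among the 16 other calcium channel subunits, 2 passed limma's test, 12 were tested and did not pass, and 2 had no count in any library. Of all genes tested 37.6% passed. The count depends on gene length, since in CPM against 1 CPM 6 of the 16 passed, where 43.4% of all genes did. The pore gene with the highest level was not Cacna1d but Cacna1e, which encodes the R-type channel CaV2.3. It stood at 19.5, 9.48 and 13.6 TPM in replicates 1, 2 and 3 (14.2 ± 5.03 TPM, limma, adjusted p = 0.000448). The auxiliary subunit Cacna2d1 stood at 9.26, 13.0 and 1.04 TPM and did not pass (adjusted p = 0.051).

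Cacnb2 had the lowest mean of the 9 genes. Its span on chromosome 2, 14607899 to 14992719 (GRCm39), also holds a processed pseudogene, Gm13268, with 166, 113 and 178 counts of its own. Its counts were 77, 211 and 41, or 0.419, 1.26 and 0.25 TPM in replicates 1, 2 and 3. Replicate 2 stood apart from the others beyond the counting intervals, and the mean was 0.643 ± 0.541 TPM (limma, adjusted p = 1), or 0.334 TPM without replicate 2. The relative Cacnb3 was the other subunit that passed, at 4.6, 3.06 and 15.5 TPM in replicates 1, 2 and 3 (7.73 ± 6.81 TPM, limma, adjusted p = 0.0186). Its mean was 3.83 TPM without replicate 3, and the call ended when any 1 library was left out (adjusted p between 0.0780 and 0.146). Cacnb3 stood above Cacnb2 in 3 of 3 libraries, with a difference of -2.18 ± 1.45 for Cacnb2 minus Cacnb3 (exact permutation p = 0.25, adjusted p = 0.318). Cacnb2 minus Cacnb4 was -0.64 ± 0.52 and negative in all 3 libraries (exact permutation p = 0.25, adjusted p = 0.318). With the longest annotated transcript as the gene length it was 0.59. Cacnb2 minus Cacnb1 was -0.56 ± 1.05 with both signs among the libraries (exact permutation p = 0.75, adjusted p = 0.808), and its mean was positive in CPM, with the longest transcript and without replicate 3.

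**Figure D2:**
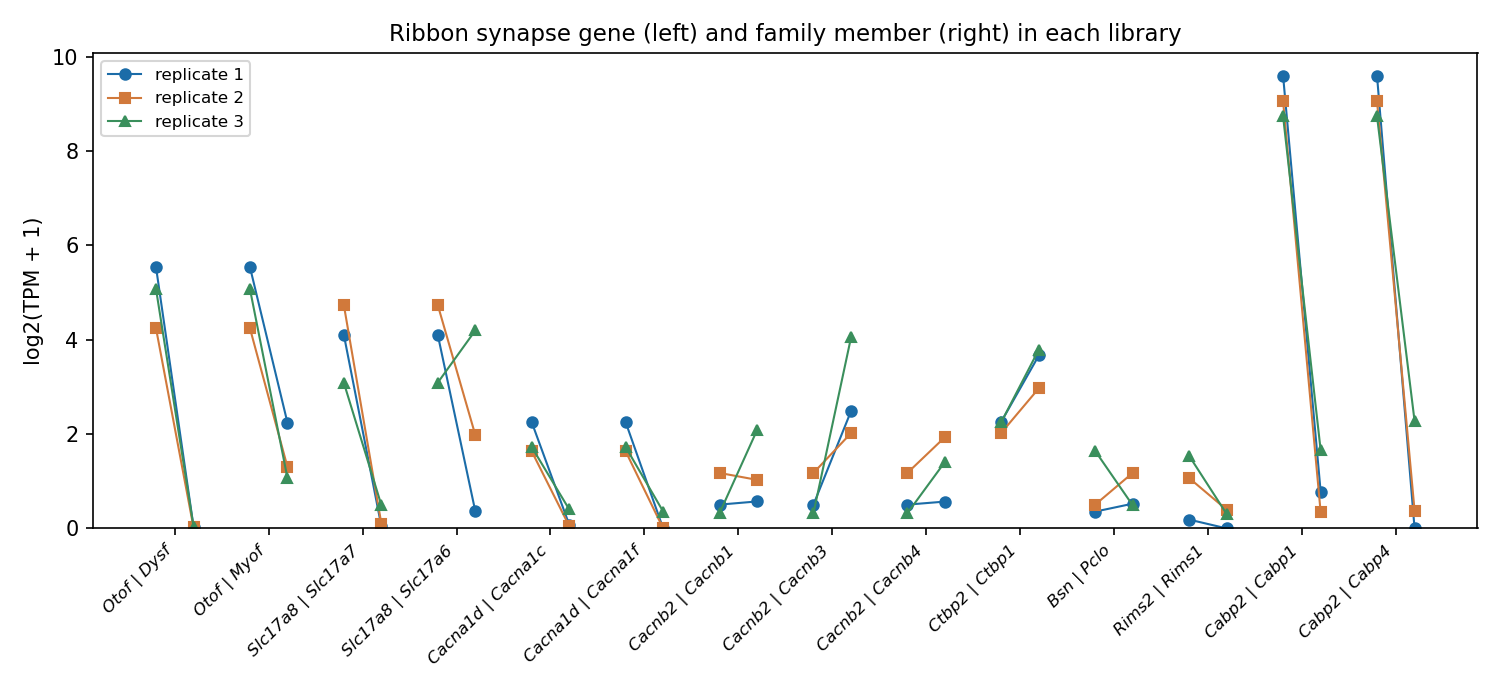
log2(TPM + 1) of each ribbon synapse gene (left point) and a family member (right point), joined within each of the 3 libraries, for 14 pairs. The lines fall in every library for pairs such as Cabp2 and Cabp1 or Otof and Dysf, rise in every library for Ctbp2 and Ctbp1, and cross for Slc17a8 and Slc17a6, which in replicate 3 stood at 7.52 and 17.3 TPM.

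Ctbp2, the gene of RIBEYE, varied least between libraries among the 9. Nearly all of its span on chromosome 7, 132589292 to 132726083 (GRCm39), lies within that of Fgfr2, 129764181 to 132725079. Fgfr2 had 756, 1081 and 754 counts in replicates 1, 2 and 3. The counts of Ctbp2 were 425, 313 and 376, or 3.80, 3.08 and 3.77 TPM in the same order. The libraries lay within 1.24-fold, with a coefficient of variation of 11.6%, and the mean was 3.55 ± 0.411 TPM (limma, adjusted p = 0.0344). The call ended when any 1 library was left out (adjusted p between 0.118 and 0.149, where 24.9%, 28.1% and 30.4% of all genes passed without replicates 1, 2 and 3) and with a pseudocount of 5 (0.0796, where 33.1% of all genes passed). On the log2(TPM + 1) scale the distance of Ctbp2 to 1 TPM moved little. It was 1.182 with all libraries and 1.141, 1.259 and 1.145 without replicates 1, 2 and 3. Without limma's trend the adjusted p was 0.00392, where 41.2% of all genes passed. A count per gene does not separate RIBEYE from the corepressor CtBP2, which many cell types make. Ctbp1, its paralog, stood higher at 10.5 ± 3.19 TPM, and Ctbp2 minus Ctbp1 was -1.30 ± 0.31, negative in all 3 libraries (exact permutation p = 0.25, adjusted p = 0.318).

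Bsn, the anchor of the ribbon, was low in replicates 1 and 2. The gene spans chromosome 9, 107973221 to 108067583 (GRCm39). Its counts were 42, 57 and 283, or 0.281, 0.418 and 2.12 TPM in replicates 1, 2 and 3. Replicate 3 was highest, with a counting interval of 1.88 to 2.38 TPM that lay above the others. The mean of 0.940 ± 1.02 TPM did not pass (limma, adjusted p = 1) and was 0.349 TPM without replicate 3. Pclo, encoding the related scaffold piccolo, stood at 0.702 ± 0.488 TPM, and the sign of Bsn minus Pclo differed between libraries (mean 0.10 ± 0.94, exact permutation p = 1, adjusted p = 1) and the mean turned negative in CPM, with the longest transcript and without replicate 3.

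Rims2, which ties vesicles and calcium channels together at the active zone, had the widest range. The gene spans chromosome 15, 39061656 to 39547768 (GRCm39). Its counts were 15, 108 and 184, or 0.139, 1.096 and 1.91 TPM in replicates 1, 2 and 3. Replicate 1 was lowest and replicate 3 exceeded it by 13.8-fold. The mean of 1.05 ± 0.885 TPM did not pass (limma, adjusted p = 0.923) and was 0.617 TPM without replicate 3. Rims1 was lower, with 0, 22 and 16 counts, and Rims2 minus Rims1 was 0.70 ± 0.52, positive in all 3 libraries (exact permutation p = 0.25, adjusted p = 0.318).

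Bsn, Rims2 and Cabp1 were all highest in replicate 3, as were 9 of 12 neuron markers and 36.7% of all genes with a count. So were 6 of 10 macrophage markers, 3 of 8 melanocyte markers and 10 of the 16 other calcium channel subunits. Of the hair cell markers 2 of 12 were, and of the supporting epithelium markers 0 of 8. The summed TPM of the neuron markers was 62.7, 43.5 and 229 in replicates 1, 2 and 3. Of the 12, 4 passed the test against 1 TPM, where 37.6% of all genes tested did. Every neuron marker had a count in replicate 3. Nefl, a neurofilament subunit, stood at 24.9, 23.1 and 69.9 TPM and Tubb3, a neuronal tubulin, at 16.2, 1.16 and 64.9 TPM in the same order. Rbfox3 and Prph were at 0 counts in 1 library each. Without replicate 3 the mean of Nefl was 24.0 TPM and that of Tubb3 8.67 TPM, which no longer passed, and 1 of the 12 neuron markers passed, against 2 without replicate 1 or 2. Of the glial markers 5 of 8 were highest in replicate 3 and 5 of 8 passed, led by Pmp22 (88.8 ± 69.1 TPM). Their sums of 256, 97.7 and 204 TPM were highest in replicate 1, where Pmp22 stood at 162 TPM, and without replicate 1 its mean was 52.3 TPM. Of the mechanotransduction genes 4 of 8 passed, led by Cib2 and Lhfpl5 (40.4 ± 10.4 TPM), and 2 of 8 did without replicate 1. Of the supporting epithelium markers 7 of 8 passed, led by the connexin genes Gjb6 and Gjb2 (648 ± 166 and 628 ± 159 TPM). Of the 18083 genes counted in all 3 libraries, 15.3% had the order of Bsn and Rims2 (replicates 3, 2, 1 from high to low) and 22.5% that of Cabp1 (replicates 3, 1, 2). The order of Bsn and Rims2 was that of 4 neuron markers, 4 macrophage markers and 2 glial markers. The part of neuronal RNA in the levels of these 3 genes was not tested.

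The other 6 genes had other orders, and so did 10 of the 12 hair cell markers, whereas Pvalb had the order of Bsn and Rims2 and Myo7a that of Cabp1. Otof, Cacna1d and Ctbp2 were highest in replicate 1 and lowest in replicate 2, as were the hair cell markers Pou4f3, Atoh1, Calb2 and Espn, and 18.9% of all genes counted in every library. Slc17a8 and Cacnb2 were highest in replicate 2 and lowest in replicate 3, as were Gfi1, Ocm, Strc and Lhx3 of the hair cell markers, 3 mechanotransduction genes and 14.3% of all such genes. Cabp2 was highest in replicate 1 and lowest in replicate 3, as were Ptprq, Myo15a and 21% of such genes. The ribbon synapse genes therefore had no common order of libraries: 4 were highest in replicate 1, 2 in replicate 2 and 3 in replicate 3. These shares of 44.4%, 22.2% and 33.3% were near those of all genes with a count, 37.5%, 25.8% and 36.7%. The summed TPM of the hair cell markers was 619, 489 and 769 in replicates 1, 2 and 3, where Pvalb alone made replicate 3 the highest. Without Pvalb, left out after its values were seen, the sums were 538, 392 and 331, with replicate 3 lowest. The sum of the 9 ribbon synapse genes without Cabp2 was 71.1, 51.9 and 52.9.

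**Figure D3:**
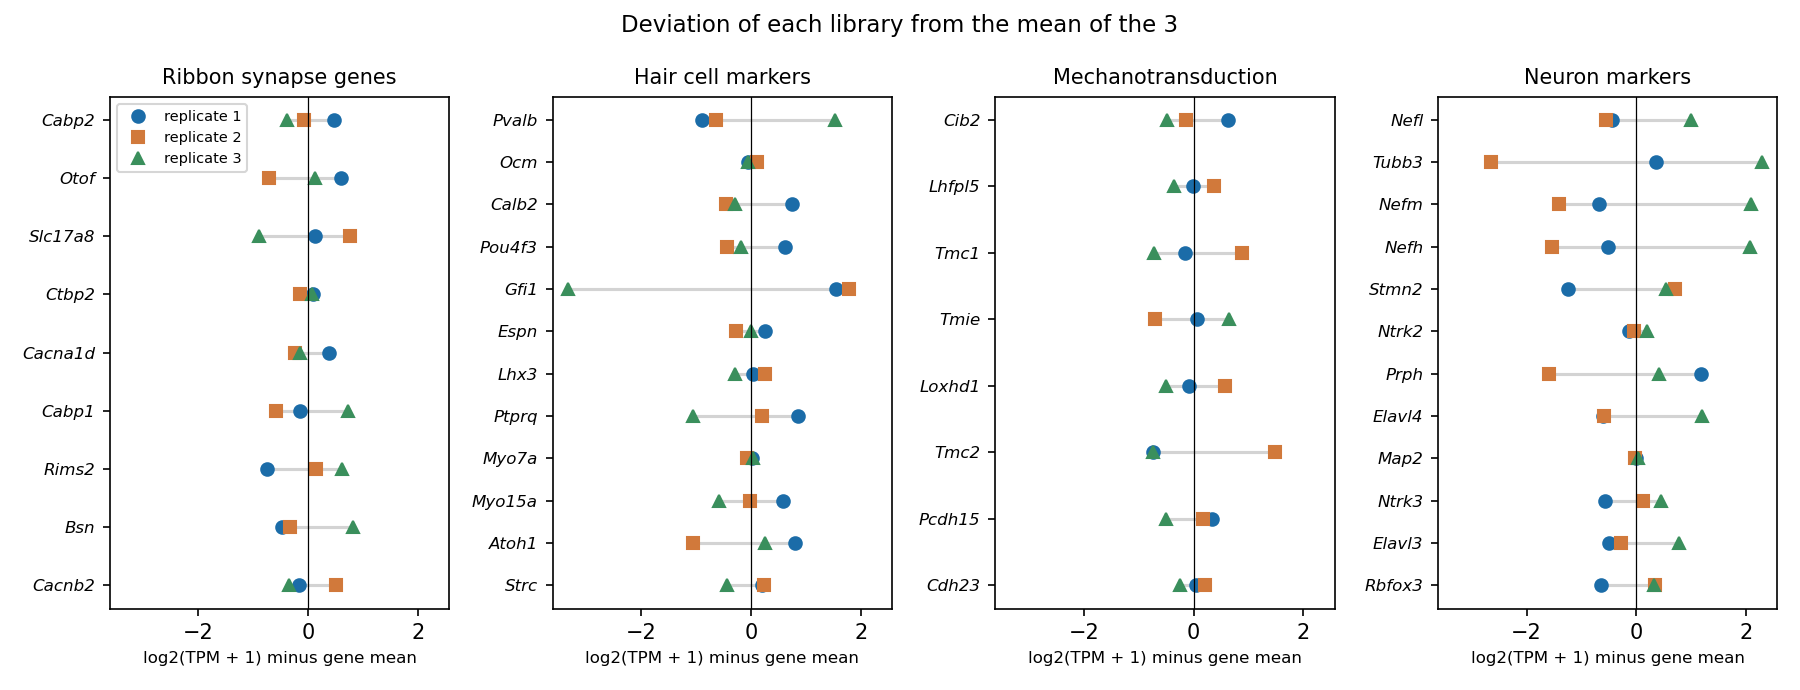
Each library's log2(TPM + 1) minus the gene's mean over the 3 libraries, for the 9 ribbon synapse genes and for markers of hair cells, mechanotransduction and neurons, with genes ordered by mean level. Replicate 3 (triangles) lies to the right for Bsn, Rims2, Cabp1 and 9 of 12 neuron markers, whereas the hair cell genes show no common order.

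The order of the 9 genes by mean TPM was Cabp2, Otof, Slc17a8, Ctbp2, Cacna1d, Cabp1, Rims2, Bsn and Cacnb2. Only 2 steps in this order separated neighbours without overlap of their libraries, Cabp2 over Otof (a ratio of means of 18.0) and Slc17a8 over Ctbp2 (4.64). Ctbp2 exceeded Cacna1d in 3 of 3 libraries, but by 0.31 ± 0.27 on the log2(TPM + 1) scale, and their ranges overlapped. The last 4 genes were not separable, since each step among them reversed in at least 1 library.

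The length used for scaling affects this order. The length implied by count and FPKM was 2243 bp for Cabp2, 31630 bp for Cacna1d, 24778 bp for Cacnb2 and 15061 bp for Ctbp2, whereas the longest annotated protein-coding transcripts in GENCODE M21 measure 1030, 8688, 3945 and 3604 bp. The implied length was 1.2 to 6.28 times the longest transcript among the 9 genes, against a median of 1.70 over all genes counted in every library. With the longest transcript in its place, chosen after the data were seen, 5 of the 9 genes passed, against 38.7% of all genes. The added gene was Cacna1d, at 6.05 ± 1.89 TPM (limma, adjusted p = 0.00598). Ctbp2 stood at 9.05 ± 0.919, Cabp2 at 768 ± 224 and Cacnb2 at 2.49 ± 2.13 TPM on that scale, and Bsn at 0.728 ± 0.794 TPM took the last place. The 5 leading genes kept their order by mean, but Slc17a8 and Ctbp2 then overlapped, at 11.7, 19.3 and 5.55 TPM for Slc17a8 and 9.51, 8.0 and 9.66 TPM for Ctbp2 in replicates 1, 2 and 3, and Ctbp2 was the higher in replicate 3.

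**Figure D4:**
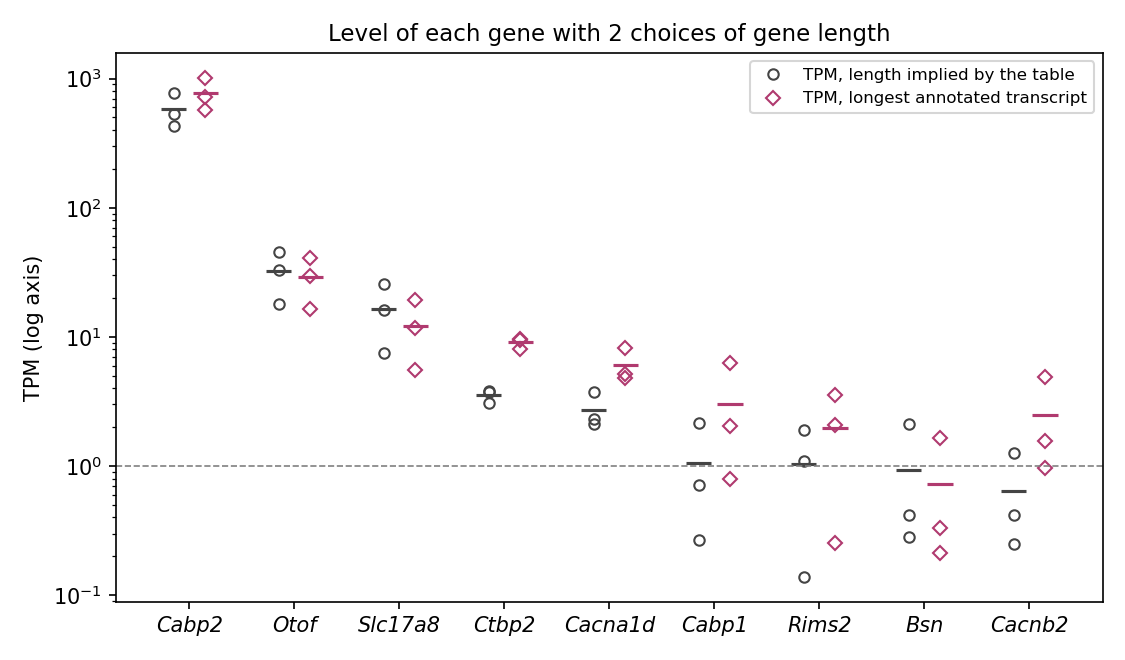
TPM on a log axis for each ribbon synapse gene, with the length implied by the deposited table (circles) and with the longest annotated transcript (diamonds), 3 libraries each and a bar for the mean. On the second scale Slc17a8 and Ctbp2 overlap, with means of 12.2 and 9.05 TPM, while Cabp2 stays far above the rest.

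The wider release machinery was examined in lists chosen for their function. Of 24 genes of SNAREs, synaptotagmins, complexins and vesicle proteins, 12 passed limma's test, 10 were tested and did not pass, and 2, Cplx3 and Cplx4 of retinal ribbon synapses, had no count. Of all genes tested 37.6% passed, and of the protein-coding ones 50.5%. Without replicates 1, 2 and 3 in turn 8, 8 and 8 of the 24 passed, where 24.9%, 28.1% and 30.4% of all genes did. In CPM against 1 CPM 17 passed, where 43.4% of all genes did. Napa, which helps to take SNARE complexes apart, stood at 183 ± 80.9 TPM, the SNARE Snap25 at 60.4 ± 55.1 TPM and the vesicle GTPase Rab3a at 59.9 ± 22.5 TPM. In this list 18 of 24 genes were highest in replicate 3, as were 9 of 12 neuron markers, 6 of 10 macrophage markers and 36.7% of all genes with a count. Snap25 stood at 22.4, 35.2 and 124 TPM in replicates 1, 2 and 3 (a mean of 28.8 TPM without replicate 3). Neurons also express Snap25 and Rab3a, and the part of neuronal RNA was not tested. Of 16 other ribbon, active zone and priming genes, Ctbp1 alone passed. The count depends on gene length and on the fit. In CPM against 1 CPM 8 of the 16 passed, where 43.4% of all genes did. Without limma's trend 2 passed, where 41.2% of all genes did. The next in level were the liprin Ppfia2 (3.20 ± 3.17 TPM, adjusted p = 0.304) and Rims3 (2.87 ± 1.40 TPM, adjusted p = 0.128).

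Of the ferlins and proteins linked to otoferlin, 4 of the 10 genes found by symbol passed, where 37.6% of all genes tested did. Camlg was not found. The clathrin adaptor subunit Ap2m1 stood at 23.1 ± 7.34 TPM and Get3, which delivers tail-anchored proteins to the endoplasmic reticulum, at 22.6 ± 9.03 TPM. Sh3gl2, encoding endophilin-A1, had 595, 40 and 837 counts in replicates 1, 2 and 3 and did not pass. Of the other CaBP genes, 1 of the 3 tested passed, Cabp7 at 6.01 ± 1.67 TPM (limma, adjusted p = 0.00512), a call that ended without replicate 1 or 2 (adjusted p = 0.0681 and 0.0680). Caln1 stood at 0.619 ± 0.381 TPM. Cabp4, the modulator of photoreceptor calcium channels, had 0, 11 and 139 counts, and Cabp5 had 0 in every library. Cabp2 minus Cabp4 was 8.25 ± 1.61 on the log2(TPM + 1) scale and positive in each library (exact permutation p = 0.25, adjusted p = 0.318).

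The receptors through which efferent fibres act on hair cells were well represented, while those of the afferent terminal were low. Chrna9 and Chrna10, the subunits of the hair cell nicotinic receptor, stood at 43.9 ± 21.8 and 41.1 ± 19.6 TPM (limma, adjusted p = 0.000189 and 0.000149). Both were lowest in replicate 3. Kcnn2, the SK2 potassium channel coupled to it, stood at 1.48 ± 0.701 TPM and did not pass. Of the 9 glutamate receptor and scaffold genes of the afferent postsynapse, 0 passed limma's test with all genes adjusted together, 0 had an unadjusted p under 0.05, and 3 passed in CPM. The shares of all genes tested were 37.6%, 41.9% and 43.4% in the same order. The highest of the 9, Gria2, had 0, 756 and 242 counts in replicates 1, 2 and 3. It was followed by Gria4 (1.96 ± 1.01 TPM, adjusted p = 0.299) and Gria3 (1.89 ± 1.38 TPM, adjusted p = 0.385).

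**Figure D5:**
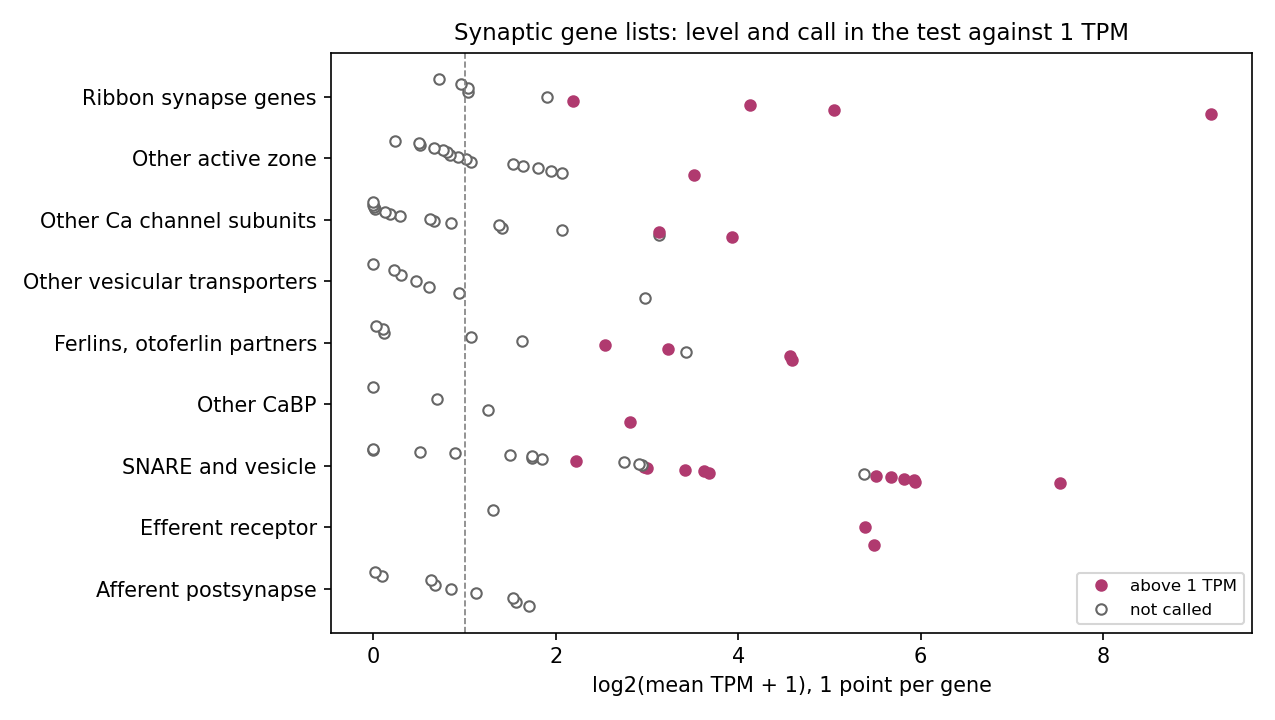
log2(mean TPM + 1) of each gene in the ribbon synapse set and in 8 lists of related synaptic genes, filled where the gene was called above 1 TPM by limma and open where it was not. Filled points number 4 of 9 among ribbon synapse genes, 12 of 24 in the SNARE and vesicle list and 1 of 16 in the other active zone list, and none in the afferent postsynapse list. Of all genes tested 37.6% were called.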

How the data were processed

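The authors deposited raw counts per gene and FPKM for each of 3 libraries, per the file headers. Per the labels' protocols, polyadenylated RNA was reverse transcribed and amplified with the SMART-Seq HT kit, then sequenced on the Illumina NovaSeq platform. The submitters' processing notes name HISAT2, StringTie, edgeR and GRCm39. Strand use and the treatment of reads with several matches are not given in the sources used here, so overlapping genes have uncertain counts. FPKM equalled count over a fixed gene length and the library total, with lengths that differed between libraries by at most 0.0498%. FPKM was rescaled to TPM. With no control group, no groups could be compared. Since levels were compared between genes, limma 3.58.1 (R 4.3.3) tested log2(TPM + 1) against 1 TPM, and no count model was fitted. The fit was intercept-only, with a trend over all 27265 genes with a count, and was tested on simulated data. edgeR 4.0.16 and DESeq2 1.42.0 gave alternative scaling factors only. Family members were compared by exact sign-flip permutation. Poisson intervals (95%) and the floor of 3 counts cover counting error only, since PCR copies were not marked. The chi-square between libraries, about 1 under counting error alone, averaged 102.6 (replicates 1 and 2), 142.8 (1 and 3) and 159.9 (2 and 3) per gene. A gap beyond the counting intervals therefore does not set a gene apart from others.

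The 9 genes and all lists were chosen with earlier results of these data known. All 9 are described, with the 3 most abundant genes of each other synaptic list, all 14 pairs and the 2 most abundant of each marker list, of which 1 is not reported here; other named genes were chosen after their values were seen. Of 165 listed genes, 164 were found by symbol. Transcript lengths came from GENCODE M21 (95.3% of counted genes matched by ID). Alternatives changed the pseudocount, filter, scaling, trend, level tested, gene length and number of libraries.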

Additional observations from a re-analysis of the deposited data

How the results depend on the processing

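Cabp2 and Otof passed limma's test under all 13 alternatives, Slc17a8 under 10 and Ctbp2 under 8. Bsn, Rims2 and Cabp1 passed under none of them. Against 10 TPM, 2 of the 9 genes and 4017 of all genes passed, and the estimates were -1.59 for Cacna1d and -1.28 for Ctbp2. With 1 library left out, 2 to 3 of the 9 genes and 6794 to 8285 of all genes passed, where fewer samples enter the fit. The distance to the level, in log2 units with the pseudocount added, turned from negative to positive without significance for some genes. These were Rims2 with a pseudocount of 5 (0.00075) and, in CPM, Bsn (1.79), Rims2 (1.57) and Cabp1 (0.92). In CPM, Cacnb2 turned to 1.75 and passed (adjusted p = 0.042). With the longest transcript length, Cacnb2 (0.63), Rims2 (0.38) and Cabp1 (0.77) turned. With 1 library left out, the estimates ranged from -0.57 to 0.073 for Bsn, from -0.37 to 0.30 for Rims2 and from -0.44 to 0.22 for Cabp1. Between family members, Cacnb2 minus Cacnb1 turned to 0.75 in CPM and 0.45 with the longest transcript, Cacnb2 minus Cacnb4 to 0.59 with the longest transcript, and Bsn minus Pclo to -0.59 in CPM and -0.071 with the longest transcript. With 1 library left out, these differences ranged from -0.92 to 0.040 for Cacnb2 minus Cacnb1 and from -0.42 to 0.49 for Bsn minus Pclo. The order of the genes kept 30 of 36 pairwise relations in CPM and 32 to 35 with 1 library left out. No pairing of samples between groups was possible because the libraries form 1 group, whereas family members were paired within each library. Depth limits Rims2 in replicate 1, which rests on 15 counts, and Cabp1 in replicate 2, which rests on 14.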
